A study of Mus musculus with 24 samples.

Results

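The genes described are 9 keratins and Trp63, which encodes the transcription factor p63, taken by symbol from a table of 24007 mouse genes. All 10 symbols were present once. Krt5, Krt14, Krt15, Krt17, Krt6a and Trp63 are usually read as basal genes, and Krt7, Krt8, Krt18 and Krt19 as luminal genes. RNA sequencing was done on mammary epithelial cells of FVB/N female mice in estrus, 10 to 12 weeks old, either wild-type (WT) or knocked out for Id4 (KO). Live lineage-negative cells were sorted by CD24, CD29 and CD61 into 3 populations, called here basal, LP (luminal progenitor) and ML (mature luminal). Each of the 6 groups has 4 biological replicates, 24 libraries in all, and the glands of 4 to 8 mice were joined for one sample. The labels refer to an earlier publication for the KO mice and do not say which part of Id4 is lost, and they name no Cre driver or target cell type. No agent or treatment is named for either genotype. Each library began from 0.5 to 2 ng of RNA that was amplified to cDNA. How many mice stand behind a given library is not stated. Replicates are numbered by their titles, and for KO ML the labels' own replicate tags differ from the titles, so which KO ML library belongs to which number is uncertain.

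Keratins are intermediate filament proteins that assemble from equal parts of an acidic type I and a basic type II partner. In stratified epithelium and in the basal layer of the mammary gland the main pair is keratin 5 (type II) with keratin 14 (type I), and in simple and luminal epithelium it is keratin 8 (type II) with keratins 18 and 19 (type I). The p63 protein maintains basal epithelial cells and binds regulatory regions of Krt5 and Krt14. ID4, the protein removed in the KO, lacks a DNA-binding domain and restrains basic helix-loop-helix factors, whose binding sequence is the E-box CANNTG, by pairing with E-proteins.

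In the mm10 assembly the type I genes Krt14 (chr11:100203162-100207548), Krt15 (chr11:100131758-100135928), Krt17 (chr11:100256217-100261029) and Krt19 (chr11:100140810-100148665) lie on the minus strand of chromosome 11. The type II genes Krt5 (chr15:101707070-101712898), Krt6a (chr15:101689910-101694307) and Krt8 (chr15:101996698-102004482) lie on the minus strand of chromosome 15, and Krt7 (chr15:101411043-101430313) lies on its plus strand. Krt18 (chr15:102028180-102032027, plus strand) is a type I gene that lies beside the type II genes, and 23697 bases separate the facing starts of Krt8 and Krt18. Trp63 (chr16:25683763-25892102, plus strand) lies on chromosome 16. Some keratins share sequence with relatives, which leaves the split of reads uncertain. Of the 50-base stretches of Krt6a transcripts, 45.7% also occur in other genes, among them Krt6b, for Krt8 the share is 26.9%, for Krt14 it is 13.9%, and for the other members it is at most 8.52%. Krt6b, which was named after its values were seen because of this likeness, had at most 2.32 counts in any library. Krt5, Krt6a, Krt7, Krt8 and Trp63 overlap an annotated gene on the other strand, and reads of such a pair cannot be told apart where counting ignores strand.

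Promoter stretches are shown because ID4 acts on factors that bind E-boxes. The promoter table matched 5 of the 10 symbols, and the 3 shown, of Krt5 and of the luminal pair Krt8 and Krt18, are those that kept at least 100 bases outside the gene's annotated exons. They are RefSeq sequence of the GRCm38.p6 assembly, 5′ to 3′ on the strand of the gene, and hold no base of an annotated exon of it. Capitals mark each E-box, the letters CANNTG, which reads the same way on both strands. The windows are chr15:101712906-101713155 (minus) for Krt5, chr15:102004483-102004592 (minus) for Krt8 and chr15:102027966-102028179 (plus) for Krt18.
Krt5: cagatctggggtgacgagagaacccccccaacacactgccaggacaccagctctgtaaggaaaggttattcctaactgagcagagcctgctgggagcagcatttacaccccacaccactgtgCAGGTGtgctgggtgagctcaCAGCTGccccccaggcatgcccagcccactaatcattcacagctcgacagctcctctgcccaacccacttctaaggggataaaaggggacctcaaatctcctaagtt
Krt8: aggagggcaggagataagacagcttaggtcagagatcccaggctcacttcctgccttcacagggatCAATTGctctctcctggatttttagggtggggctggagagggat
Krt18: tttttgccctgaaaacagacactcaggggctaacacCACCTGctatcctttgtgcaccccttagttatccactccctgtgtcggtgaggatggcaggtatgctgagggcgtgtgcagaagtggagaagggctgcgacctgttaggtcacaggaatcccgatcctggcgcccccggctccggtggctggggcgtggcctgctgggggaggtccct

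The Krt5 stretch of 250 bases holds 2 E-boxes, where 66.2% of all promoter windows of that length hold at least 1. The Krt8 stretch of 110 bases and the Krt18 stretch of 214 bases each hold 1, where 39% and 61.3% of windows of the same lengths do. An E-box so close to a start is therefore common, and its presence is a description of these letters and not evidence of binding.

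Libraries held between 3098425 and 7246443 counts, so that 3 counts, the limit that a count of 0 allows, equal 0.414 to 0.968 CPM (counts scaled to library size). Those limits cover counting error only and use raw library totals, without the TMM scaling that the levels carry. Id4 was at 85.9, 13.4, 29.6 and 38.7 CPM in WT basal cells and at 10.2, 1.13, 11.3 and 0.943 CPM in KO basal cells, a fall of 3.05 on the log2 scale (exact permutation test, two-sided, p = 0.0286, the smallest that 4 against 4 libraries can give). Every KO basal library lay below every WT basal library, with residual Id4 counts of 4 to 64. The sorted populations carried their markers: 10 basal myoepithelial markers led by Acta2 and Myh11 summed to between 6964 and 12671 CPM in basal libraries and to between 33.0 and 169 CPM in luminal ones. Replicate 2 of WT basal stood apart, with 12797 CPM of 10 LP markers led by Csn3 and Csn2, against 829 to 1234 CPM in the other WT basal libraries, and replicate 2 of KO basal had the most among KO basal libraries, 3179 CPM. That sum was also highest in replicate 2 of WT LP (49807 CPM, against 10278 to 12962 in the others), WT ML (1451 CPM) and KO ML (2077 CPM), but not of KO LP. The 10 pan-luminal markers summed to 997 CPM in WT basal replicate 2, near the 982 CPM of replicate 3.

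In WT mice the basal keratins Krt5, Krt14, Krt15 and Krt17 and the factor Trp63 were all higher in basal cells than in either luminal population. Mean levels in basal cells were 127 times those of LP for Krt5, 165 times for Krt14, 180 times for Krt17, 153 times for Trp63 and 14.5 times for Krt15. The luminal keratins Krt8, Krt18 and Krt19 ran the other way, with LP means 5.13, 4.67 and 3.94 times those of basal cells. Against LP, 5 of the 10 genes passed as higher in basal cells and 3 as lower (edgeR quasi-likelihood test, Benjamini-Hochberg adjusted p under 0.05), where 9.12% and 6.68% of all genes tested did. Against ML, 5 passed as higher and 5 as lower, where 14% and 10.6% of all genes did. Because these are bulk samples, fewer cells of a type and less RNA per cell cannot be told apart.

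**Figure D1:**
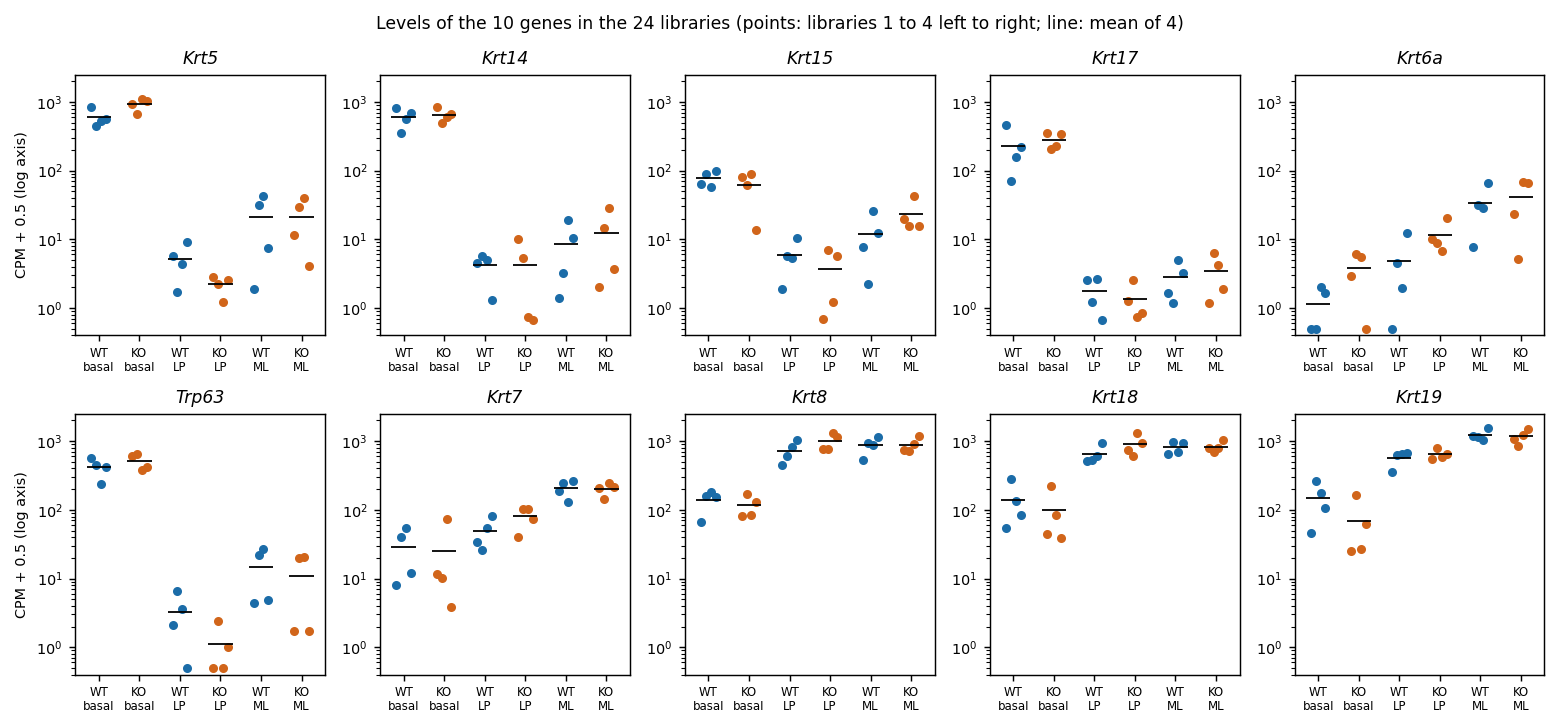
Level of each of the 10 genes in each of the 24 libraries, as CPM on a log scale, by population and genotype, each with 0.5 added. Points are libraries and lines are means of 4. Krt5, Krt14, Krt17 and Trp63 sit far higher in the 8 basal libraries than in the 16 luminal ones, Krt8, Krt18 and Krt19 sit higher in the luminal ones, and the means of Krt6a are highest in ML.

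Krt5, the type II keratin of the basal layer, was at 847, 452, 523 and 555 CPM in the 4 WT basal libraries, at 5.17, 1.23, 3.84 and 8.52 CPM in WT LP and at 1.41, 30.9, 42.6 and 7.07 CPM in WT ML. The basal libraries lay above all luminal libraries, and replicates 2 and 3 of ML lay above every LP library. The log2 difference from LP was 6.98 (SE 0.85, adjusted p = 3.64e-05) and from ML 4.89 (SE 0.76, adjusted p = 2.16e-04).

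Krt14, the type I partner of keratin 5, was at 811, 349.8, 568 and 693 CPM in WT basal cells. It was at 4.04, 5.28, 4.55 and 0.789 CPM in LP and at 0.900, 2.77, 18.5 and 9.82 CPM in ML, again without overlap with basal cells. Basal cells exceeded LP by 7.40 on the log2 scale (SE 0.79, adjusted p = 1.02e-05) and ML by 6.28 (SE 0.74, adjusted p = 1.66e-05).

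Krt17, a type I keratin of myoepithelial cells and of stressed epidermis, ranged in WT basal cells from 69.5 CPM in replicate 2 to 457 CPM in replicate 1, with 159 and 220.2 CPM in replicates 3 and 4. In LP it was at 2.02, 0.705, 2.16 and 0.158 CPM and in ML at 1.16, 0.693, 4.54 and 2.74 CPM. The lowest basal library lay above every luminal one, and the log2 differences were 7.51 from LP (SE 0.77, adjusted p = 6.68e-06) and 6.67 from ML (SE 0.72, adjusted p = 8.19e-06).

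Krt15, a type I keratin known from basal cells of skin and its hair follicle stem cells, was at 62.6, 89.2, 56.6 and 98.7 CPM in WT basal cells. Its luminal levels were closer to the basal ones than those of the other 3: LP held 1.39, 5.11, 4.79 and 9.94 CPM and ML 7.33, 1.73, 24.9 and 12.0 CPM. The groups did not overlap, with log2 differences of 3.87 from LP (SE 0.67, adjusted p = 8.47e-04) and 2.77 from ML (SE 0.63, adjusted p = 0.00440).

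Trp63 was at 574, 449, 237 and 416 CPM in WT basal cells, at 1.64, 6.16, 3.12 and 0 CPM in LP and at 3.86, 21.8, 26.0 and 4.33 CPM in ML. The count of 0 in LP replicate 4 allows up to 0.498 CPM before TMM scaling. As with Krt5, basal libraries did not overlap luminal ones and ML replicates 2 and 3 were the highest luminal libraries. The log2 differences were 7.31 from LP (SE 0.87, adjusted p = 2.86e-05) and 4.93 from ML (SE 0.76, adjusted p = 1.92e-04). Isoforms of p63 with and without the transactivation domain cannot be told apart in counts per gene.

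Krt8, the type II keratin of simple epithelium, was at 445, 611, 809 and 1023 CPM in WT LP and at 535, 941, 879 and 1145 CPM in WT ML, against 67.1, 159, 182 and 156 CPM in basal cells. Both luminal populations lay above every basal library and overlapped one another. Basal cells were lower than LP by a log2 difference of -2.34 (SE 0.34, adjusted p = 1.69e-04) and lower than ML by -2.61 (SE 0.34, adjusted p = 4.58e-05), while LP and ML differed by -0.27 (95% interval -0.96 to 0.41, adjusted p = 0.704).

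Krt18, the type I partner of keratin 8, was at 522, 525, 605 and 928 CPM in WT LP and at 645, 979.7, 702 and 932 CPM in ML. In basal cells it was at 53.8, 283, 133 and 82.7 CPM, below all luminal libraries. The library highest in basal Krt18 was replicate 2, the one with the high LP marker sum, and the part of that sum in the Krt18 level was not tested. The log2 difference from basal cells was -2.21 for LP (SE 0.41, adjusted p = 0.00131) and -2.54 for ML (SE 0.41, adjusted p = 2.91e-04), and LP and ML differed by -0.33 (95% interval -1.16 to 0.49, adjusted p = 0.698).

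Krt19, a type I keratin without the usual tail domain, had a further step between the luminal populations. Its levels were 45.5, 261, 173 and 106 CPM in WT basal cells, 356, 633, 645 and 669 CPM in LP and 1193, 1159, 1053 and 1579.7 CPM in ML. No library of one population overlapped another population, but the log2 difference between LP and ML, -1.11 (SE 0.39), missed the threshold (edgeR adjusted p = 0.0778), although it passed with limma-voom (-1.26, adjusted p = 6.87e-04) and DESeq2. Basal cells were lower than LP by -1.96 (SE 0.40, adjusted p = 0.00276) and lower than ML by -3.07 (SE 0.41, adjusted p = 5.52e-05), and basal replicate 2 was again the highest of its group.

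Krt7, the type II keratin of ducts and glands, was at 187, 245, 128 and 261 CPM in WT ML, at 33.7, 25.9, 53.7 and 82.2 CPM in LP and at 7.65, 40.2, 53.3 and 11.3 CPM in basal cells. ML lay above both other populations, while LP and basal libraries overlapped. It was the 1 gene of the 10 that passed the edgeR test between WT LP and ML (log2 difference -2.06, SE 0.52, adjusted p = 0.0164). Of all genes tested, 4.89% passed as lower in LP and 6.62% as higher. That call was lost without LP replicate 1 (adjusted p = 0.0555) or LP replicate 2 (adjusted p = 0.0581). It was also lost without the expression filter, with replicates 1 and 2 or 3 and 4 alone, and in a fit of all 24 libraries. Basal cells were lower in Krt7 than ML by -2.86 (SE 0.54, adjusted p = 0.00114), and their difference from LP, -0.79 (SE 0.52), did not pass (adjusted p = 0.352).

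Krt6a, listed with the basal genes, had its highest mean in ML. This type II keratin of hair follicle, tongue and wounded epidermis was at 0, 0, 1.496 and 1.14 CPM in WT basal cells, at 0, 4.05, 1.44 and 11.8 CPM in LP and at 7.33, 31.03, 27.6 and 66.3 CPM in ML. In counts, WT basal libraries held 0 to 7 and ML libraries 57 to 459, and no basal library reached the lowest ML library. Basal cells were lower than ML by a log2 difference of -5.71 (SE 1.30, adjusted p = 0.00416), and neither the difference of basal cells from LP (-2.79, SE 1.22, adjusted p = 0.146) nor that of LP from ML (-2.92, SE 1.08, adjusted p = 0.0985) passed. With limma-voom the basal against ML call of Krt6a was lost (-6.02, adjusted p = 0.0882), and the LP against ML difference passed (-5.17, adjusted p = 0.0242). In KO mice the same order held, at 2.40, 5.63, 4.97 and 0 CPM over basal libraries, 9.53, 8.19, 6.21 and 20.01 CPM in LP and 22.4, 4.68, 68.7 and 66.4 CPM in ML, with replicate 2 of KO ML overlapping basal cells and a log2 difference between basal cells and ML of -3.56 (SE 0.93, adjusted p = 0.0118), a call that was likewise lost with limma-voom (-4.01, adjusted p = 0.262).

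Basal transcripts in luminal cells are given next as a percent of the mean of the basal libraries of the same genotype. Over WT ML replicates 1, 2, 3 and 4, Krt5 stood at 0.238%, 5.19%, 7.17% and 1.19% of the WT basal mean and Trp63 at 0.920%, 5.21%, 6.21% and 1.03%. Over the same libraries the summed basal myoepithelial markers stood at 0.721%, 1.67%, 1.71% and 0.978% of their basal mean, and in WT LP at 1.15% to 1.87%. Trp63 was thus above the markers in all 4 WT ML libraries and Krt5 in replicates 2, 3 and 4, with the widest gaps in replicates 2 and 3. Krt14 stood at 0.149%, 0.458%, 3.06% and 1.62%, above the markers in replicates 3 and 4, and Krt17 ranged from 0.306% to 2.00%. Krt15 stood furthest from the rest, at 1.81% to 12.9% in WT LP, 2.26% to 32.4% in WT ML, 0.317% to 10.8% in KO LP and 25.0% to 70.2% in KO ML. It was above the marker sum in every luminal library other than KO LP replicate 1.

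Transcripts of epidermis were highest in some of the same ML libraries, but not in all. Krt1 and Krt10, the suprabasal keratins of skin, had 122 and 273 counts in WT ML replicate 3, 240 and 319 in KO ML replicate 2 and 287 and 416 in KO ML replicate 3, against at most 24 Krt1 counts in any basal library and at most 1 in any LP library. WT ML replicate 2, high in Krt5 and Trp63, had 19 Krt1 and 3 Krt10 counts, no more than replicate 4 with 19 and 28, where Krt5 and Trp63 were low. Krt25, a keratin of the hair follicle inner root sheath that was named after its values were seen, had 96 counts in WT ML replicate 2 and at most 1 elsewhere. Of 26 listed genes of epidermal differentiation 21 were measured, and they summed in the WT groups to 17.5 to 66.7 CPM (basal), 30.9 to 48.7 CPM (LP) and 90.0 to 242 CPM (ML). The KO sums were 22.9 to 59.3 CPM (basal), 43.0 to 138 CPM (LP) and 149.5 to 308 CPM (ML). In KO ML these sums, at 219, 229, 308 and 149.5 CPM in replicates 1 to 4, ranked the libraries in the same order as Krt5. In WT ML they were 90.0, 105, 242 and 131 CPM. Replicate 1 was lowest and replicate 3 highest for both, while replicate 2 exceeded replicate 4 in Krt5 but not in the sum. Of the 21 genes, 10 were at 0 in all WT basal libraries, 11 in WT LP and 3 in WT ML, and 9, 8 and 1 in the KO groups. In WT ML libraries the cornified envelope gene Sprr1a had 214 to 507 counts, while Lor and Ivl, of the same structure, had at most 3. Lor and Ivl were named after the epidermal list was seen to be high in ML. The part of these transcripts in the ML levels of Krt5 and Trp63 was not tested.

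**Figure D2:**
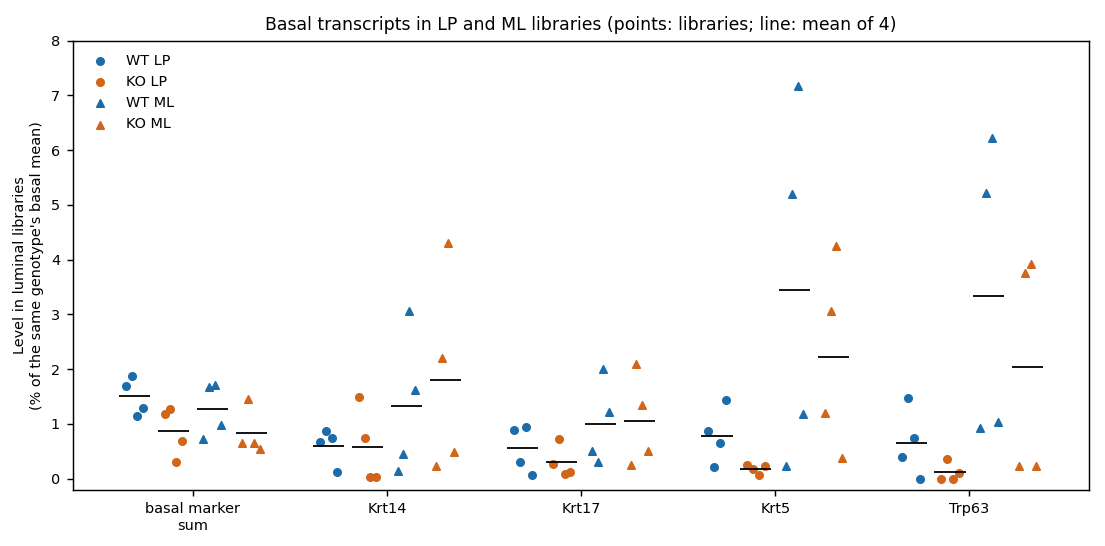
Basal transcripts in each luminal library as a percent of the mean of the basal libraries of the same genotype, on a linear axis, beside the summed basal myoepithelial markers. Krt5 and Trp63 of mature luminal replicates 2 and 3 lie above the marker sum of the same libraries in both genotypes.

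Between LP and ML of WT mice, Krt5 differed by -2.09 on the log2 scale (SE 0.72, adjusted p = 0.0755) and Trp63 by -2.37 (SE 0.75, adjusted p = 0.0522), short of the threshold. In KO mice the corresponding differences passed: Krt5 by -3.56 (SE 0.58, adjusted p = 0.00158), Trp63 by -3.99 (SE 0.96, adjusted p = 0.0193) and Krt15 by -2.82 (SE 0.78, adjusted p = 0.0432). These were 3 genes lower in LP and 0 higher, where 1.59% and 4.08% of all genes tested passed. The genotypes were not shown to differ in this respect. The edgeR interaction test of the KO effect in LP against ML gave -1.48 for Krt5, -1.63 for Trp63 and -1.71 for Krt15 (adjusted p = 0.9999 each). The KO fit was repeated without KO ML replicates 2 and 3, which had over 100 Krt1 counts, a choice made after seeing the data. Only KO ML replicates 1 and 4 remained. The libraries left out were also the highest KO ML libraries in Krt5 and Trp63, so the choice by itself made these differences smaller. Krt5 was still called lower in KO LP (-2.05, adjusted p = 0.0199), while Trp63 (-0.87, adjusted p = 0.858) and Krt15 (-2.40, adjusted p = 0.235) did not pass. With limma-voom on all 12 KO libraries neither Krt5 (-2.46, adjusted p = 0.0709) nor Trp63 (-3.05, adjusted p = 0.109) passed, and Krt7 (-1.47, adjusted p = 2.35e-04) and Krt19 (-0.91, adjusted p = 0.00577) did. The Krt15 call was lost on leaving out 1 library in 8 of 12 cases (adjusted p from 0.0514 to 0.143), which were basal replicate 1, LP replicates 1, 3 and 4 and each of the 4 ML libraries, and the Trp63 call on leaving out KO LP replicate 1, 3 or 4 or KO ML replicate 3 (adjusted p from 0.0604 to 0.0795).

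Leaving out 1 library also added calls. In WT LP against ML these were Krt5 without ML replicate 1 (adjusted p = 0.00978), Trp63 without LP replicate 2, ML replicate 1 or ML replicate 4 (adjusted p from 0.0261 to 0.0416), Krt6a without LP replicate 4 (adjusted p = 0.0464), and Krt19 without basal replicate 1 (adjusted p = 0.0173) or 2 (adjusted p = 0.0261). In KO LP against ML, Krt17 passed without LP replicate 2 (adjusted p = 0.0361) and Krt7 without basal replicate 3 (adjusted p = 0.0281), the library with the highest basal Krt7. The Krt5 call in KO mice was kept on leaving out each library in turn.

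Levels of different keratins are compared per kilobase of the deposited gene length, whose definition is not given. In WT basal cells Krt14 led at 497 CPM per kb, Krt5 followed at 271, and Krt19, Krt17, Krt18, Trp63 and Krt8 came next with overlapping libraries. Krt15, at 45.2 CPM per kb, lay above Krt7 and Krt6a without overlap. In WT LP, Krt19, Krt18 and Krt8 led at 587, 461 and 399.95 CPM per kb with overlap among them. As shares of the summed member keratins per kb, WT basal cells held 37.9% Krt14 (SD 9.19, n = 4) and 20.7% Krt5 (SD 3.42, n = 4). WT LP held 40.1% Krt19, 31.6% Krt18 and 26.8% Krt8, and WT ML held 52.6% Krt19, 23.99% Krt18, 19.75% Krt8 and 2.07% Krt7.

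**Figure D3:**
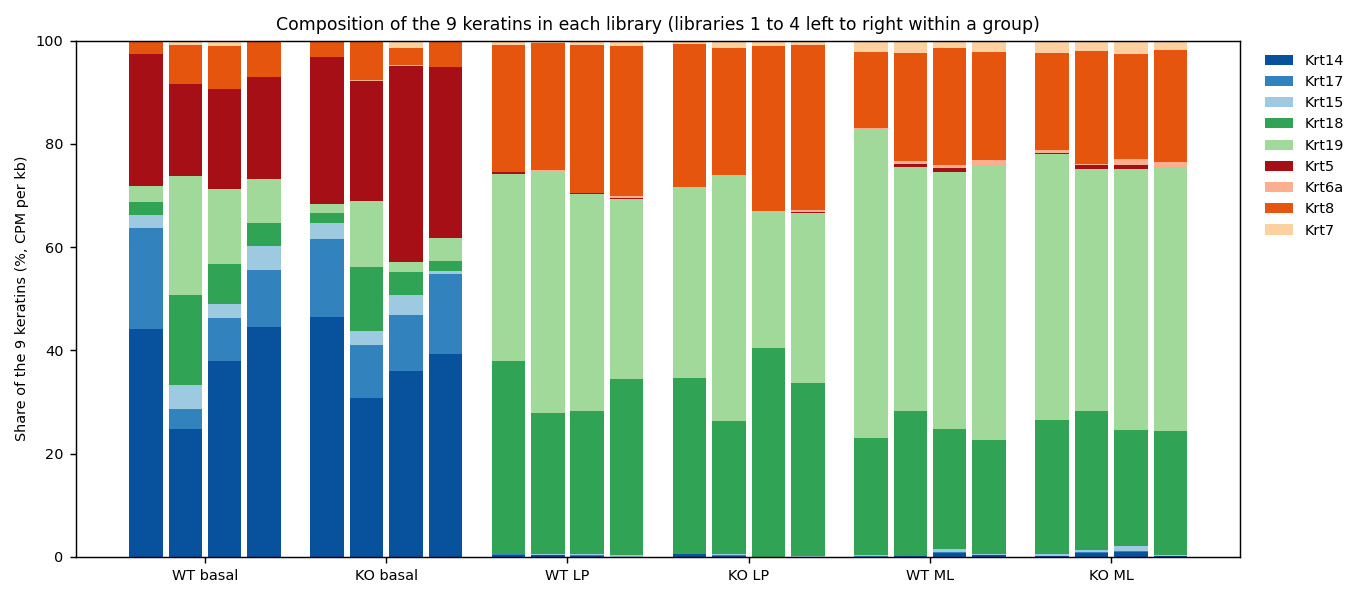
Share of each of the 9 keratins in their sum, in percent of CPM per kb, as 1 stacked bar per library. Krt14 and Krt5 fill most of the basal bars other than that of WT replicate 2, which holds more Krt18 and Krt19, and Krt19, Krt18 and Krt8 fill nearly all of the luminal bars.

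The ratio of summed type II to summed type I member keratins, per kb, was below 1 in all 24 libraries. It ranged from 0.3565 to 0.405 over WT basal libraries and from 0.449 to 0.749 over KO basal libraries, without overlap. LP ranges were 0.3375 to 0.441 (WT) and 0.355 to 0.499 (KO), and ML ranges were 0.206 to 0.342 (WT) and 0.281 to 0.330 (KO), with overlap in both. WT and KO ranges were thus apart in basal cells, where Krt5 is the main type II term. From CPM without the division by length, the type II to type I ratio was 0.602 to 0.698 in WT basal cells and 0.743 to 1.26 in KO basal cells, still apart but no longer below 1 throughout. The ratio of Krt8 to Krt18 was 0.662 to 1.04 over WT LP libraries and 0.6435 to 0.971 over WT ML libraries. The ratio of Krt5 to Krt14 was 0.445 to 0.718 in WT basal cells and 0.613 to 1.05 in KO basal cells, with overlap. Without the division by length it was 0.801 to 1.29 and 1.10 to 1.89, so that the place of Krt14 above Krt5 depends on the deposited lengths. These ratios are descriptions with no test, and a gap between groups of 4 was looked for in several of them.

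**Figure D4:**
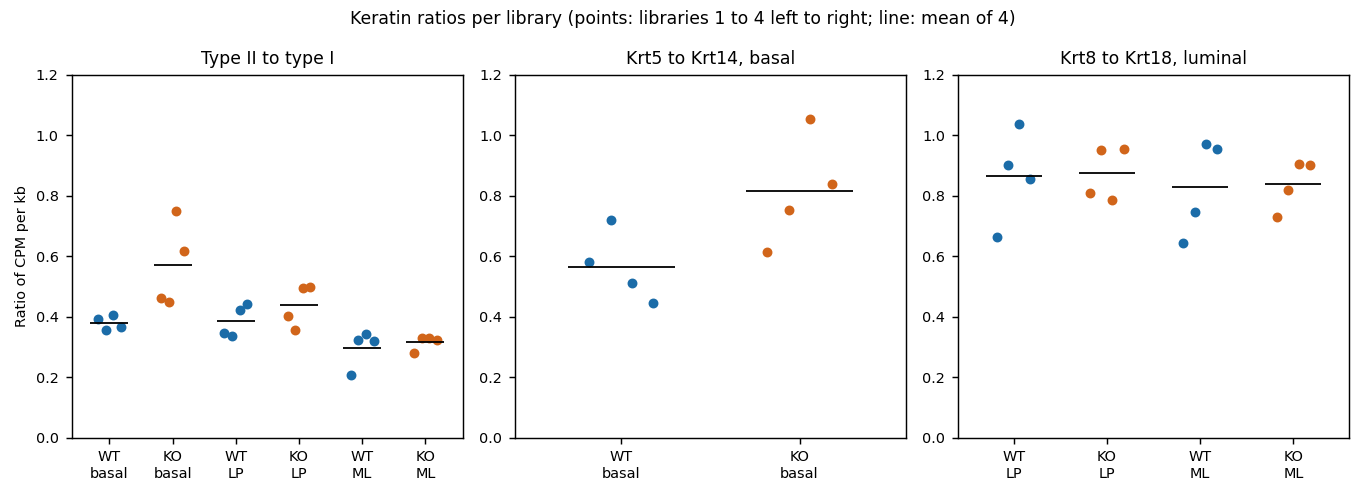
Ratio of type II to type I member keratins, of Krt5 to Krt14 (basal) and of Krt8 to Krt18 (luminal) in each library, from CPM per kb. Points are libraries and lines are means of 4. KO basal libraries lie above WT basal libraries in the type II to type I ratio, and the genotypes overlap in the luminal populations.

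The same division of basal and luminal keratins was measured in KO mice. Between basal cells and LP, 5 of the 10 genes passed as higher and 3 as lower, where 8.12% and 6.69% of all genes tested did. Krt7 did not pass (-1.68, SE 0.65, adjusted p = 0.0966), but passed without KO basal replicate 3 (adjusted p = 9.97e-05). Krt5 exceeded its LP level by 9.12 on the log2 scale (SE 0.69, adjusted p = 4.02e-07), Krt14 by 7.48 (SE 1.09, adjusted p = 2.92e-04), Krt17 by 8.33 (SE 0.69, adjusted p = 8.61e-07), Krt15 by 4.28 (SE 0.83, adjusted p = 0.00181) and Trp63 by 9.65 (SE 1.08, adjusted p = 1.48e-05). Krt8, Krt18 and Krt19 were lower in KO basal cells than in KO LP by -3.04, -3.13 and -3.15. Basal transcripts were low in KO luminal cells: Trp63 was at 0, 1.88, 0 and 0.522 CPM in LP and at 1.199, 19.4, 20.3 and 1.24 CPM in ML, Krt14 at 9.72, 4.78, 0.239 and 0.174 CPM in LP and at 1.54, 14.3, 28.0 and 3.19 CPM in ML. ML replicates 2 and 3 were the highest for both. Against ML, 4 genes passed as higher and 5 as lower, where 11.9% and 7.51% of all genes did, and the gene that did not pass was Krt15 (1.46, SE 0.73, adjusted p = 0.186).

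Within basal cells, no member passed the test between KO and WT. Of the 9 tested, 0 passed by edgeR, DESeq2 or limma-voom, and 1, Krt5, had an unadjusted p under 0.05. Of all 11307 genes tested, 0 (0%) passed and 383 had an unadjusted p under 0.05. Id4, the gene knocked out, was thus not called by this test either, although its KO and WT libraries did not overlap. The lack of calls therefore does not show that the members were unchanged. Krt5 was at 935, 660, 1119 and 1015 CPM in KO basal cells, and 3 of the 4 libraries exceeded every WT basal library while replicate 2 overlapped them. Its log2 difference was 0.67 (95% interval 0.10 to 1.24, unadjusted p = 0.0248, adjusted p = 0.998). It was 0.30 within replicates 1 and 2, 1.03 within replicates 3 and 4, and 0.46 without WT replicate 2 and KO replicate 3.

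Krt14, the partner of Krt5, was nearly level: KO basal cells held 849, 487, 592 and 673 CPM, within the WT range apart from replicate 1, a log2 difference of 0.12 (95% interval -0.47 to 0.71). Trp63 was at 615, 651, 377 and 424 CPM (0.31, 95% interval -0.33 to 0.95) and Krt17 at 352, 205.5, 226 and 337 CPM (0.33, 95% interval -0.56 to 1.22), both with overlap. Krt15 was at 78.9, 60.6, 87.9 and 13.2 CPM, low in replicate 4, with a difference of -0.34 (95% interval -1.38 to 0.70). The KO and WT libraries of all 4 genes overlapped.

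The luminal keratins of KO basal cells were lower in the mean, but none passed. Krt19 was at 24.6, 165, 26.2 and 62.3 CPM, with replicate 2 far above the others and overlap with WT, and its log2 difference was -1.08 (95% interval -2.38 to 0.22, adjusted p = 0.998). Krt18 was at 44.5, 224, 84.2 and 38.9 CPM (-0.50, 95% interval -1.74 to 0.74) and Krt8 at 80.5, 172, 82.6 and 129 CPM (-0.27, 95% interval -1.07 to 0.53). In both genotypes replicate 2, the library with the highest LP marker sum of its group, held the most Krt18 and Krt19. Without WT basal replicate 2 and KO basal replicate 3 the difference was -0.33 for Krt19, 0.23 for Krt18, -0.06 for Krt8 and -1.59 for Krt7. That choice removed the highest WT library in Krt19 (261 CPM) and a low KO one (26.2 CPM). It therefore moved the Krt19 difference upward by itself, and the part of luminal RNA in that difference was not tested. Krt7 was at 11.2, 9.57, 73.0 and 3.30 CPM, with replicate 3 standing apart (-0.19, 95% interval -2.07 to 1.68), and Krt6a was too low to be tested.

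In LP, 0 of the 8 members tested passed by any of the 3 tools and 0 had an unadjusted p under 0.05, and 0 (0%) of all 11700 genes passed. The luminal keratins Krt8, Krt18 and Krt7 were higher in the mean of KO LP, at 768, 757, 1317 and 1143 CPM for Krt8, 737, 617, 1300.2 and 929 CPM for Krt18 and 40.4, 102, 103 and 73.3 CPM for Krt7, all overlapping WT. The sum of 10 markers of mature luminal cells was also higher in KO LP, at 957 to 1901 CPM against 566 to 889 CPM in WT LP, without overlap. Of the 9 markers tested, 9 had a log2 difference above 0 (median 1.05), 7 had an unadjusted p under 0.05 and 0 passed. Over all 11700 genes, 5878 were above 0, 439 had an unadjusted p under 0.05, and 2.68% of single genes did not overlap. The part of the markers in the keratin levels was not tested. The log2 differences of Krt8, Krt18 and Krt7 were 0.46 (95% interval -0.17 to 1.09), 0.47 (95% interval -0.14 to 1.08) and 0.70 (95% interval -0.13 to 1.52). Krt19 differed by 0.16 (95% interval -0.36 to 0.68), with KO LP libraries at 553, 798, 595 and 645 CPM. Krt5 was low in both genotypes, at 2.29, 1.71, 0.717 and 2.09 CPM in KO LP, and its difference of -1.46 (95% interval -2.97 to 0.04) had an unadjusted p of 0.0551. Krt17 and Trp63 were too low to be tested, and Trp63 had 0 counts in KO LP replicates 1 and 3, which allows up to 0.577 and 0.792 CPM before TMM scaling.

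In ML, 0 of the 10 members passed by any of the 3 tools and 0 had an unadjusted p under 0.05, and 0.00851% of all genes tested passed. KO ML libraries held 736, 722, 916 and 1195 CPM of Krt8, 784, 683, 785 and 1027 CPM of Krt18, 205, 144, 249 and 216 CPM of Krt7 and 1091, 837, 1233 and 1528 CPM of Krt19. All overlapped WT ML, and the intervals were narrow: Krt18 differed by 0.03 (95% interval -0.42 to 0.47), Krt8 by 0.04 (95% interval -0.50 to 0.59), Krt7 by 0.01 (95% interval -0.52 to 0.53) and Krt19 by -0.07 (95% interval -0.56 to 0.41). The widest mean difference was in Krt15, at 19.4, 15.3, 42.2 and 15.04 CPM in KO ML, with replicate 3 highest, against 1.73 to 24.9 CPM in WT ML (1.02, 95% interval -0.33 to 2.37). Krt5, at 11.1, 28.5, 39.6 and 3.54 CPM in KO ML, differed by 0.05 (95% interval -2.11 to 2.22), and replicates 2 and 3 were again the highest.

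**Figure D5:**
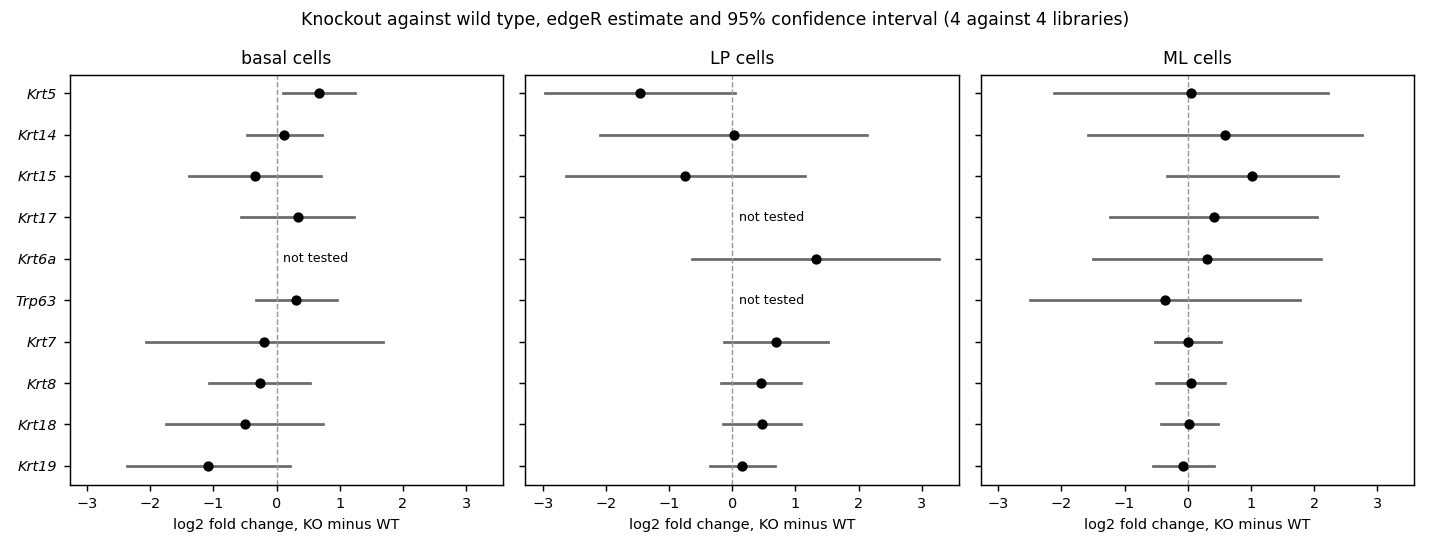
Log2 difference between KO and WT for each of the 10 genes in each population, with 95% intervals from edgeR's quasi-likelihood fit, and no point where a gene was too low to be tested. Intervals in mature luminal cells are narrow around 0 for Krt7, Krt8, Krt18 and Krt19, and Krt5 in basal cells is the interval that excludes 0.

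No gene of the 10 separated the 4 KO from the 4 WT libraries in any population, where 2.58% of genes did in basal cells, 2.68% in LP and 2.78% in ML. The KO effect itself was compared between populations by an interaction term, and 0 of the 10 genes passed for basal cells against LP, basal cells against ML or LP against ML, as with 0 (0%) of all 14082 genes tested. DESeq2 and limma-voom also gave 0 of the 10 each time, and 0 of the 10 had an unadjusted p under 0.05. Krt5 had the smallest p, for basal cells against LP, with a log2 difference of effects of 2.08 (SE 1.07, edgeR adjusted p = 0.725).

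Most genes listed as p63 targets were higher in basal cells. Of 30 identifiers tested, 20 were higher in WT basal cells than in LP and 2 were lower, with a median log2 difference of 2.70 against -0.03 over all genes tested, of which 9.12% were higher and 6.68% lower. Among them Igfbp3, which binds insulin-like growth factors, was higher by 7.05 (adjusted p = 7.78e-07) and Col17a1, the hemidesmosomal collagen, by 6.67 (adjusted p = 1.21e-06). Against ML, 20 were higher and 2 lower, where 14% and 10.6% of all genes were. Between LP and ML, where 6.62% of all genes were higher in LP and 4.89% lower, 3 were higher in LP, among them the growth factor receptor Egfr (2.53, adjusted p = 3.51e-04), and 6 lower, among them Fgfr2 (-3.26, adjusted p = 4.43e-05). The KO moved none past the threshold: 0 of 30 in basal cells with 2 at an unadjusted p under 0.05, 0 of 23 in LP with 4, and 0 of 26 in ML with 2. Over all genes, 383 of 11307, 439 of 11700 and 455 of 11747 had an unadjusted p under 0.05.

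Genes for the junctions that anchor keratins were counted in the same comparisons, with the same shares over all genes. Of 12 identifiers for hemidesmosomes and linkers, which tie keratins to the basement membrane, 9 were higher and 0 lower in WT basal cells than in LP, and 10 and 0 against ML, as for the laminin chains Lamb3 (4.68, adjusted p = 1.57e-06) and Lama3 (5.17, adjusted p = 1.18e-05) against ML. The linker gene Dst is split over several identifiers in the table, so its counts are uncertain. The 12 identifiers stand for at most 10 genes, and Dst enters the number of higher ones more than once. Dst, Col17a1 and Lamb3 are also in the p63 target list, so the results of the lists are not separate. Of 13 genes for desmosomes, which tie keratins to neighbouring cells, 5 were higher and 1 lower in basal cells than in LP, where 9.12% and 6.68% of all genes were, with Perp, a desmosomal membrane protein, higher by 3.27 (adjusted p = 3.44e-06) and desmoplakin, Dsp, by 2.504 (adjusted p = 1.20e-04). Against ML, 4 were higher and 3 lower, where 14% and 10.6% of all genes were, including the plakophilins Pkp3 (1.43, adjusted p = 0.00706) and Pkp2 (-2.82, adjusted p = 0.00662). Between LP and ML, 0 were higher in LP and 5 lower, where 6.62% and 4.89% of all genes were.

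Among 13 tested genes of the p53 family and partners of p63, 1 was higher in WT basal cells than in LP, the deacetylase Hdac1 (1.05, adjusted p = 0.0403), a share no larger than the 9.12% over all genes. Against ML 4 were higher, where 14% of all genes were, among them the genome organiser Satb1 (2.09, adjusted p = 0.00150). Other intermediate filament genes included vimentin, Vim, higher in basal cells than in LP by 3.37 (adjusted p = 4.45e-06) and synemin, Synm, by 4.71 (adjusted p = 1.54e-05). The table holds 34 further keratins, of which few were abundant enough to test. Krt23, a type I keratin, was higher in basal cells than in LP by 4.46 (adjusted p = 0.00653), and Krt4, a type II keratin of mucosal epithelium, was lower in basal cells than in ML by -5.38 (adjusted p = 0.00985).

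The genes with the highest Pearson r with each member, on log2 CPM over the 24 libraries, follow, from 9253 candidates, as descriptions without a test. All points share the division into populations, which alone gives high correlations. For Krt5 they were Cxcl14 (r = 0.963) and Col17a1 (r = 0.957), for Krt14 Cxcl14 (r = 0.972) and Postn (r = 0.970), and for Krt17 Myh11 and Tpm2 (r = 0.981 each). For Trp63 they were Col17a1 (r = 0.964) and Hmcn1 (r = 0.961), and for Krt15 Speg (r = 0.871) and Tes (r = 0.867). For Krt6a they were Tgfbr2 (r = 0.875) and Slc12a2 (r = 0.861). Of the luminal keratins, Krt7 was matched by Lrba (r = 0.933) and Rbm20 (r = 0.915), Krt8 by Anxa1 (r = 0.964) and Pfkfb3 (r = 0.938), Krt18 by Cldn7 (r = 0.946) and Plekha6 (r = 0.942), and Krt19 by Rab15 (r = 0.979) and Erbb3 (r = 0.954). By rank some of these matches were poor: Spearman's rho with Krt18 was 0.612 for Cldn7, which placed it 667 among the candidates, and 0.727 for Plekha6, and rho of Krt8 with Pfkfb3 was 0.802. Among the members themselves, Krt14 and Krt17 had r = 0.97499 and Krt8 and Krt18 r = 0.955, while Krt6a had r = -0.465 with Krt5 and r = 0.772 with Krt7.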

How the data were processed

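The deposited table holds expected counts per gene, which the authors made from trimmed and aligned reads, and 4.36% of its values are not whole. Per the submitters' processing notes, the tools were cutadapt, STAR and RSEM on mm10. Whether reads were counted by strand is not stated. Reads from a gene and an overlapping antisense gene therefore cannot be told apart. Expected counts were rounded and tested in R 4.3.3 with edgeR 4.0.16 (TMM scaling, filterByExpr, robust quasi-likelihood F-test, Benjamini-Hochberg over all genes tested, threshold 0.05). WT and KO populations were fitted as 12 libraries each, KO against WT as 8 libraries per population, and the difference of KO effects over all 24. Levels are CPM on the TMM scaling of all 24 libraries. Alternatives included DESeq2 1.42.0, limma 3.58.1 (voom), other scalings, no filter and left-out libraries. The procedure was tested on simulated data with changes larger than the KO differences of the members. That test does not measure how well smaller changes are found. The members and gene lists were chosen with earlier results of these data known. Genes outside the 10 were named by rank: the smallest p values of each list per comparison, the most abundant markers, and the 2 genes most like each member. Exceptions, named after the data were seen, were Krt6b, Krt25, Lor and Ivl. The replicate numbers in the titles pair KO and WT libraries in LP (correlations 0.114 to 0.344) and ML (0.115 to 0.324) by the deviations of equally numbered libraries, although in ML only 2 of 4 libraries correlated best with their own number and the replicate tags of KO ML differ from the titles, and a block for the pair left 0 member calls in both. In basal cells the correlations were lower (0.0549 to 0.135), but 4 of 4 libraries correlated best with their own number. The block left 0 member calls there too. Identifiers of 23780 of the 24007 genes matched the GENCODE M21 annotation used for positions.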

Additional observations from a re-analysis of the deposited data

Results flagged for a closer look

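Among the 60 sets of 4 libraries (10 genes in 6 groups), 3 had a highest or lowest library further from the others than Dixon's 95% limit, and chance alone gives about 1 in 20. Krt15 was at 42.2 CPM in KO ML replicate 3, against 15.04 to 19.4 CPM in the other KO ML libraries, and that library also had the most Krt1 counts. Krt7 was at 73.0 CPM in KO basal replicate 3, against 3.30 to 11.2 CPM in the others of its group, and that library also had the highest endothelial marker sum, 269.97 CPM. Krt19 was at 356 CPM in WT LP replicate 1, against 633 to 669 CPM in the other WT LP libraries. The part of the accompanying markers in these levels was not tested. No KO effect differed between populations for any of the 10 genes by the interaction test.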

How the results depend on the processing

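Over 117 results for a member in a comparison, 2875 alternative runs were made, of which 2799 kept the call, 48 lost it and 28 gained one. No called value changed sign. Members passing in WT basal against LP, 8 of 10, became 4 with replicates 1 and 2 alone, and in WT basal against ML, 10 of 10, became 6. With replicates 3 and 4 alone, a set of the same size, they stayed at 8 and 10. In WT LP against ML, 1 passed, and this became 2 with DESeq2, 0 without the filter, 3 with voom, 4 with a replicate block, 0 with replicates 1 and 2 alone, 3 with replicates 3 and 4 alone, 2 without WT basal replicate 2 and KO basal replicate 3, 0 in a fit of all 24 libraries, and 0 to 3 on leaving out 1 library. In KO LP against ML, 3 passed, and this became 1 without the filter, 0 with replicates 1 and 2 alone and 0 with replicates 3 and 4 alone, 1 without the ML libraries rich in Krt1 (chosen after seeing the data), 1 to 4 on leaving out 1 library, and 2 with the block. The block, by replicate number, added Krt6a, Trp63 and Krt19 in WT and lost Krt15 in KO. Between WT LP and ML 4 of 4 libraries correlated best with their own number (lowest correlation 0.0838), and between KO LP and ML 3 did (lowest 0.0405). With voom 3 passed in KO LP against ML, but these were Krt15, Krt7 and Krt19 in place of Krt5, Trp63 and Krt15, and in basal against ML voom lost Krt6a in both genotypes and gained Krt15 in KO. The cause of these changes was not tested, and the smaller sets also hold fewer samples. The paired fit changed no member call between KO and WT. Over all genes, the 2018 calls of WT basal against LP became 347 with replicates 1 and 2 alone, the 3140 against ML 871, the 1470 of WT LP against ML 143 and with voom 3067. With replicates 3 and 4 alone these 3 WT counts were 2036, 3178 and 1432. The 1883 of KO basal against LP became 837 and 749 with replicates 1 and 2 and with 3 and 4, the 2463 against ML 1246 and 1091, and 1460 without the Krt1-rich libraries. The 721 of KO LP against ML became 17 and 182 with those sets, 1182 with DESeq2, 2158 with voom, 347 without the Krt1-rich libraries and 382 to 1059 on leaving out 1. Between KO and WT, basal cells had 0 calls with edgeR, 6 with DESeq2, 1 with voom, 30 without the filter and 13 in the fit of all libraries. LP had 0, 8 with DESeq2 and 1 with replicates 3 and 4, and ML 1, 8 and 4. The KO effect in basal cells against LP had 0 calls and 29 with DESeq2, and against ML 0 and 30. Under RLE scaling the p63 target counts were 20 higher and 2 lower for basal against LP and 21 and 2 against ML, and no median of the p63 target, desmosome, hemidesmosome, p53 family or other filament list changed sign in a WT comparison. Members under about 1 CPM rest on 3 or fewer counts in the shallowest library.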
